A study of Mus musculus with 34 samples.

Results

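The genes described here are 10 genes of the growing and mature mouse oocyte, chosen by symbol as oocyte growth factors and meiotic regulators. They are the secreted ligands Gdf9 and Bmp15, the RNA-binding proteins Zar1 and Zar1l, the transcription factors Nobox, Figla, Sohlh1 and Lhx8, the kinase Mos, and Fbxo43, which encodes the anaphase inhibitor EMI2. All 10 symbols were found among the 49686 genes listed for zygotes and late 2-cell embryos and among the 51734 listed for blastocysts. The study injected zygotes with mRNA for CHK1, a kinase of the DNA damage checkpoint, as the wild-type protein (WT) or as the mutant R442Q, and sequenced RNA from single embryos after removal of the zona pellucida. It asked, per its title, how preimplantation embryos respond when this checkpoint is perturbed. The zygotes numbered 5 with WT and 6 with R442Q mRNA and the late 2-cell embryos 4 and 5, none of them treated with a drug per the labels, and each genotype had 7 blastocysts. These 14 had grown in KSOM medium with 30 nM of a CHK1 inhibitor. Every embryo of both groups carried injected Chek1 mRNA, so no uninjected embryo entered the comparisons, and no strain, age or parent is given for the embryos.

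GDF9 and BMP15 are ligands of the TGF-beta family that the oocyte secretes to instruct the granulosa and cumulus cells around it. FIGLA, SOHLH1, NOBOX and LHX8 switch on oocyte genes in the ovary, among them those of the zona pellucida and of the ligands, and ZAR1 and ZAR1L bind stored maternal mRNAs and hold back their translation. MOS, through the MAP kinase cascade, and EMI2, by inhibiting the anaphase promoting complex, keep the mature oocyte arrested in metaphase II until fertilisation. Most maternal mRNAs are degraded between fertilisation and the late 2-cell stage, when transcription from the embryo's own genome takes over.

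Total counts ran from 7183632 to 11296522 per zygote and from 5727956 to 8916343 per late 2-cell embryo. A floor of 3 counts corresponded to 0.288 to 0.470 CPM (counts scaled to a common library total) in zygotes and 0.322 to 0.531 CPM in late 2-cell embryos. The floor covers counting error only, since reads amplified by PCR and not tagged per molecule do not count molecules. For blastocysts only FPKM, which scales fragments by transcript length and depth, was used, and their depth is unknown. The level of Chek1, whose counts do not separate injected from own mRNA, was 4587 to 8593 CPM with WT and 6117 to 7955 CPM with R442Q mRNA in zygotes, and 387 to 658 CPM and 266 to 649 CPM in late 2-cell embryos. Of 22 markers of cumulus and granulosa cells, the summed level was 61.7 to 73.4 CPM in WT zygotes, 55.6 to 68.9 CPM in R442Q zygotes, 152 to 196 CPM in WT and 104 to 225 CPM in R442Q late 2-cell embryos. In zygotes 7 of the 22 were at 0 in every WT embryo and 2 in every R442Q embryo. Of the defining markers, Fshr reached 3.63 CPM and Has2 2.87 CPM in a zygote, Fshr was at 0 in every late 2-cell embryo and Has2 reached 0.431 CPM there, Foxl2 reached at most 1.36 CPM in a zygote or late 2-cell embryo, Cyp19a1 reached 43.0 CPM in a zygote and Amhr2 98.3 CPM in a late 2-cell embryo. Their part in the results was not tested. Summed over the 12 of 14 listed genes of 2-cell activation that the tables hold, the level was 833 to 1062 CPM in WT and 997 to 1199 CPM in R442Q zygotes. In late 2-cell embryos it was 903 to 2684 CPM with WT and 2221 to 3867 CPM with R442Q, and its part in the results of that stage was not tested either. All 8 trophectoderm markers were above 0 in every blastocyst.

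In WT zygotes the 10 genes spanned from among the most abundant messengers to almost none. On the FPKM scale, which divides by transcript length and so allows genes to be compared, Bmp15 stood at 1025 ± 68.3 FPKM (SD, n = 5) and ranked 72 of all listed genes. Gdf9 followed at 449 ± 113 FPKM and rank 205. Zar1 stood at 342 ± 200 FPKM and rank 270. Every WT zygote had more Bmp15 than any had Gdf9, while Gdf9 (276 to 569 FPKM) and Zar1 (125 to 612 FPKM) overlapped.

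Lhx8 (157 to 215 FPKM), Nobox (129 to 169 FPKM), Zar1l (106 to 164 FPKM) and Fbxo43 (107 to 153 FPKM) formed a group in which each overlapped the next, and Lhx8 also overlapped the lower end of Zar1. Below them, and apart from them, came Mos at 11.9 to 52.5 FPKM and Figla at 5.40 to 7.26 FPKM. Sohlh1 was listed at 0 in 4 of the 5 WT zygotes and at 0.240 FPKM in the other. The summed level of the 10 genes in zygotes was 4844 ± 467 CPM with WT (SD, n = 5) and 4880 ± 622 CPM with R442Q (SD, n = 6), most of it Bmp15. In late 2-cell embryos the sum was 530 ± 317 CPM (WT, SD, n = 4) and 528 ± 168 CPM (R442Q, SD, n = 5).

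**Figure D1:**
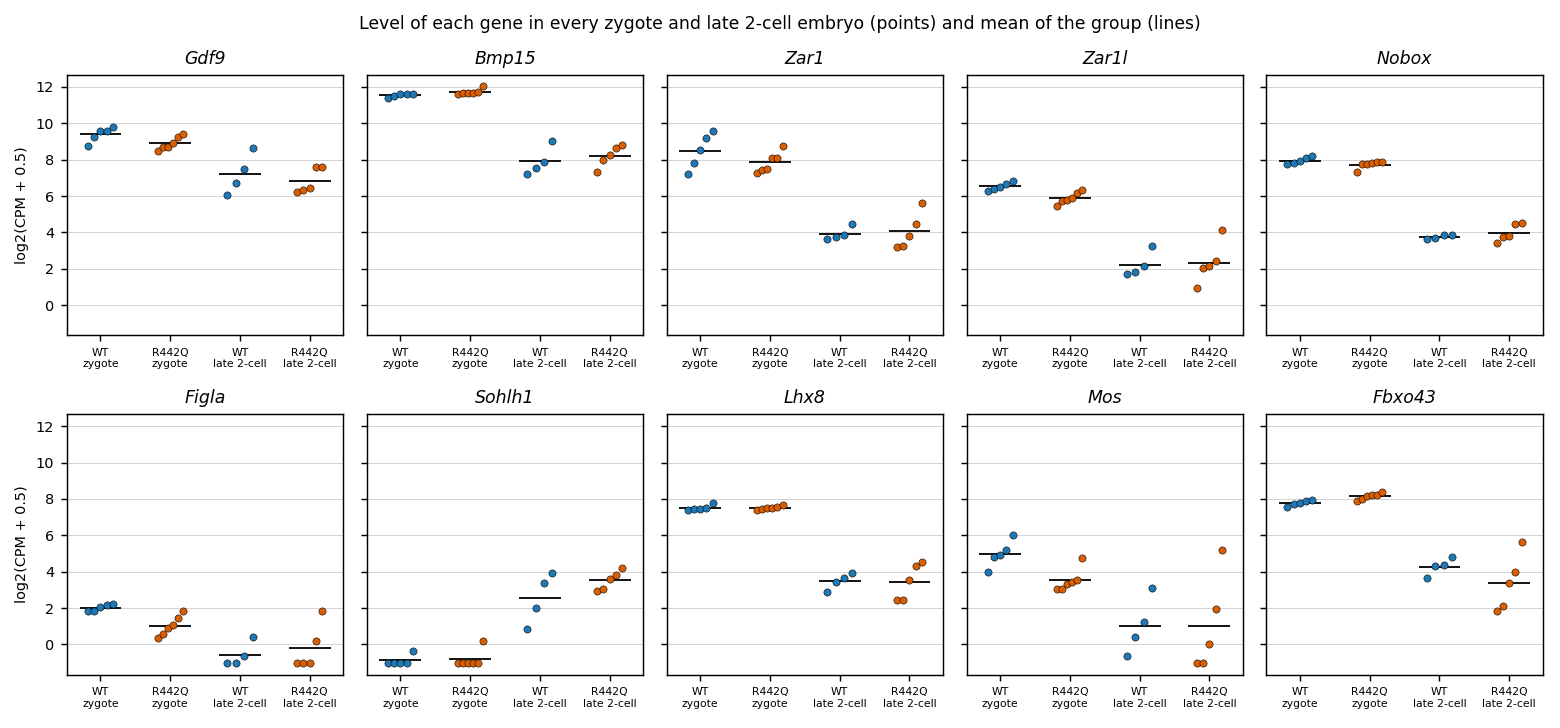
Level of each of the 10 genes as log2(CPM + 0.5), with 1 point per embryo and a line at the mean of the log2 values of each group; blue is WT and orange is R442Q. In 9 panels the late 2-cell embryos lie below the zygotes of their own genotype, except for 1 R442Q late 2-cell embryo that lies above the R442Q zygotes in Mos and 1 that lies among them in Figla, and in Sohlh1 they lie above.

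Zygotes were compared first for the effect of R442Q against WT, with edgeR's quasi-likelihood test and Benjamini-Hochberg adjustment over the 12420 genes tested. Of these genes 13.2% passed the adjusted p of 0.05 (6.3% higher and 6.92% lower in R442Q). Sohlh1 was too low to be tested. Of the other 9 genes 3 passed: Mos and Zar1l fell and Fbxo43 rose. Of the 9 fitted log2 fold changes 7 were below 0, and their median was -0.52, against 0.01 over all tested genes. Replicates are single embryos, so the p-values measure the spread between embryos, and no label says whether they came from separate litters or injection sessions. None of the 3 calls was made when zygotes and late 2-cell embryos were fitted in one model that shares a spread (adjusted p of 0.606 for Mos, 0.598 for Zar1l and 0.864 for Fbxo43). In that model 270 genes were called in place of 1643.

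Mos encodes the kinase that activates the MAP kinase cascade in the meiotic oocyte. It is a gene of 1 exon on chromosome 4 (GRCm38, chr4:3870657-3872105, minus strand). WT zygotes held 29.4, 65.3, 15.1, 36.8 and 28 CPM. The 6 R442Q zygotes ranged from 7.64 CPM through a median of 10.1 CPM to 26.8 CPM. Of the R442Q zygotes 5 lay below every WT zygote, and the sixth lay among them. Mos fell 2.87-fold (log2 fold change -1.52 ± 0.35 SE, edgeR adjusted p = 0.00863). The call was made in each of the 11 fits that left out 1 zygote, with log2 fold changes from -1.90 to -1.20.

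Zar1l is a paralogue of Zar1 with a zinc-binding region that contacts mRNA, encoded on chromosome 5 (chr5:150507055-150518164, minus strand, 4 exons). WT zygotes held 112, 102, 75.8, 90.4 and 84.3 CPM. R442Q zygotes ran from 43.6 CPM through a median of 56.7 CPM to 79.5 CPM, and 5 of the 6 lay below all WT zygotes. Zar1l fell 1.58-fold (log2 fold change -0.66 ± 0.16 SE, edgeR adjusted p = 0.0109), and was called in each of the 11 fits that left out 1 zygote. Zar1 itself (chr5:72576806-72581254, minus strand, 4 exons) was more variable. Its WT zygotes held 369, 222, 149, 758 and 579 CPM, and its R442Q zygotes 153 to 428 CPM with a median of 223 CPM. The groups overlapped throughout, and the log2 fold change of -0.81 ± 0.34 (SE) did not pass the test (edgeR adjusted p = 0.135), although it did without WT replicate 3 (adjusted p = 0.0420) and with no filter on low counts (adjusted p = 0.00184). Without WT replicate 4 it was -0.48 and was not called. Of the 50-base stretches of the annotated Zar1 transcripts 28.4% also occur in other annotated genes (22.8% for its main transcript). The reads of Zar1 could thus have been split, and its level is less certain than that of Zar1l, which shares none.

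Fbxo43 lies on chromosome 15 (chr15:36150060-36164884, minus strand, 5 exons). WT zygotes held 243, 215, 187, 234 and 210 CPM. R442Q zygotes held 234 to 335 CPM with a median of 293 CPM, and 5 of the 6 lay above all WT zygotes. The rise was 1.28-fold (log2 fold change 0.36 ± 0.11 SE, edgeR adjusted p = 0.0476). It lay close to the threshold, and 8 of the 11 fits that left out 1 zygote did not call it (adjusted p up to 0.116). On the deposited FPKM it was not called either (limma log2 difference 0.05, adjusted p = 0.873).

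Both the scaling and the transcript length differ between counts and FPKM. On FPKM the median log2 difference of all genes in zygotes was -0.11, against 0.01 on counts. Dividing counts by FPKM and depth gives an implied effective length, which for Fbxo43 was 1435 to 2027 bases in WT zygotes and 1721 to 2245 bases in R442Q zygotes. In WT late 2-cell embryos it was 4055, 2984, 3670 and 1995 bases in replicates 1 to 4, and in R442Q late 2-cell embryos 1020, 2440, 1813, 1037 and 1313 bases. The annotation holds a full-length transcript of 4035 bases and shorter ones of 889 and 373 bases. The 4055 bases of WT late 2-cell replicate 1, from 86 counts, exceed the longest of these. The implied lengths are therefore approximate and do not show which transcript was present. In implied length 3 of the 4 WT late 2-cell embryos lay above every other embryo, and all 5 R442Q ones lay below 3 of the 4 WT ones. In late 2-cell embryos, where Fbxo43 had 21 to 301 counts, the implied length of Zar1 ran from 945 to 1301 bases (51 to 298 counts) and that of Nobox from 1365 to 1801 bases (77 to 151 counts). Gdf9, with more counts, stayed between 1465 and 1694 bases in all 20 embryos. No test was made of these lengths.

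**Figure D2:**
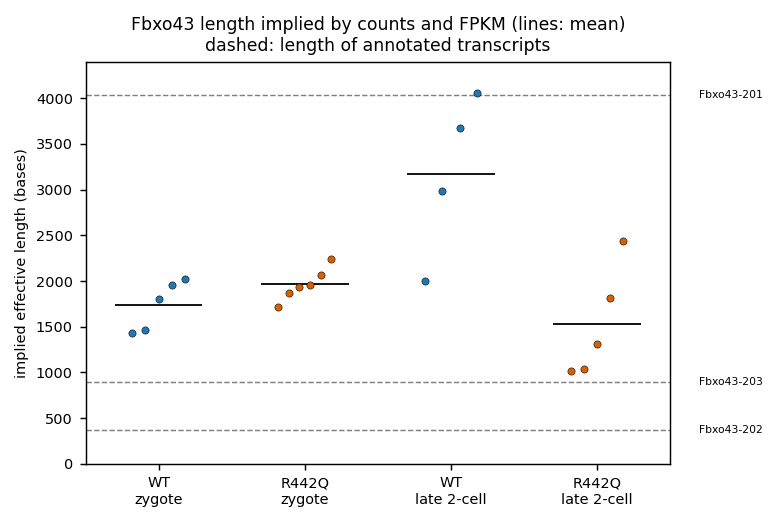
Effective length of Fbxo43 in bases, implied by each embryo's count, FPKM and total, with 1 point per embryo, a line at each group's mean and dashed lines at the lengths of the 3 annotated transcripts (Fbxo43-201 to Fbxo43-203). WT late 2-cell embryos reach 4055 bases, above the longest annotated transcript (4035 bases), and R442Q late 2-cell embryos lie between 1020 and 2440 bases.

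The ligands did not pass the test in zygotes and their values leaned to opposite sides. Gdf9 (chr11:53431023-53437904, plus strand, 2 exons) held 595, 758, 425, 773 and 895 CPM in WT zygotes. R442Q zygotes held 358 to 678 CPM with a median of 447 CPM, and 3 of the 6 lay below all WT zygotes. The log2 fold change was -0.52 ± 0.18 (SE), with an edgeR adjusted p of 0.0653. It passed in DESeq2 (adjusted p = 0.0408), on FPKM with limma (adjusted p = 0.0469), with no filter on low counts (adjusted p = 0.00431), without WT replicate 3 (adjusted p = 0.0152) and without R442Q replicate 3 (adjusted p = 0.0238).

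Bmp15 (chrX:6314107-6320721, minus strand, 2 exons) held 2629, 3141, 3085, 2878 and 3068 CPM in WT zygotes. R442Q zygotes held 3106 to 4166 CPM with a median of 3229 CPM, so 5 of the 6 lay above all WT zygotes. On the deposited FPKM only 1 of the 6 did, with 961 to 1311 FPKM against 931 to 1103 FPKM in WT. The edgeR log2 fold change of 0.17 ± 0.08 (SE) was small and was not called (edgeR adjusted p = 0.220). Within an embryo, the ratio of Bmp15 to Gdf9 FPKM was 2.30, 2.21, 3.85, 1.98 and 1.84 in WT zygotes and 2.66 to 4.68 with a median of 3.77 in R442Q zygotes. The groups overlapped because WT replicate 3 lay among the R442Q zygotes. The ratio of Bmp15 to Nobox was 6.18 to 7.58 in WT zygotes and 8.09 to 11.6 in R442Q zygotes, with no overlap, and that of Zar1 to Zar1l was 1.18 to 4.85 and 1.5 to 4.6, with overlap throughout. Of the 36 pairs among the 9 genes above 0 in every zygote, 4 (11.1%) had ratios that did not overlap, 3 of them with Bmp15. The share among pairs of all tested genes was not computed, so whether 11.1% is unusual is not known. The ratios are descriptions, picked with the values known.

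**Figure D3:**
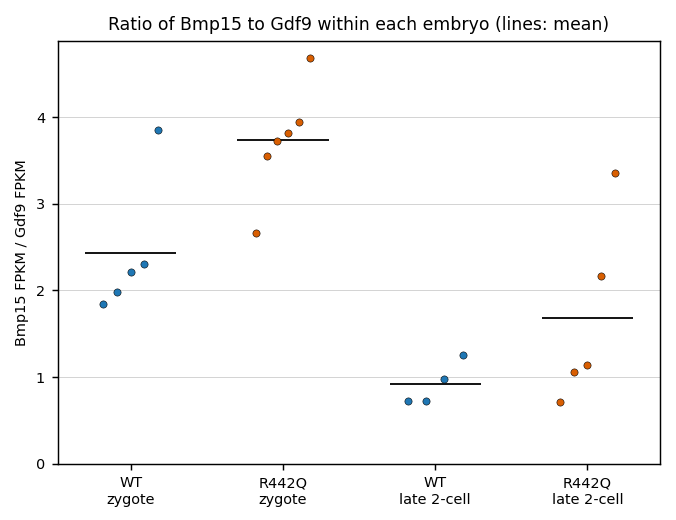
Ratio of Bmp15 FPKM to Gdf9 FPKM within each embryo, with 1 point per embryo, a line at the group mean and an axis that starts at 0. The mean is 2.44 in WT and 3.73 in R442Q zygotes, and 0.920 in WT and 1.69 in R442Q late 2-cell embryos.

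None of the transcription factors passed the test in zygotes. Figla (chr6:86016171-86020996, plus strand, 3 exons), a basic helix-loop-helix factor that activates the zona pellucida genes, was low throughout. WT zygotes held 3.10, 3.60, 3.13, 4.19 and 4.06 CPM, and R442Q zygotes 0.769 to 3.10 CPM with a median of 1.48 CPM. It was the only one of the 9 tested genes whose genotypes did not overlap, as was true of 8.37% of all tested genes, but the margin was narrow, with 24 counts in the highest R442Q zygote and 26 in the lowest WT zygote, which print as the same CPM. The log2 fold change was -1.14 ± 0.41 (SE), with an edgeR adjusted p of 0.0787. It passed without R442Q replicate 4 (adjusted p = 0.0379) and on FPKM with limma (adjusted p = 0.00812).

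Nobox (chr6:43303674-43309554, minus strand, 9 exons), a homeobox factor needed for follicle growth, held 214, 267, 239, 225 and 291 CPM in WT and 158 to 232 CPM in R442Q zygotes. Its log2 fold change was -0.24 ± 0.12 (SE, edgeR adjusted p = 0.189). Lhx8 (chr3:154306294-154330659, minus strand, 9 exons), a LIM homeobox factor, was the nearest to no difference, with 165 to 221 CPM in WT and 169 to 204 CPM in R442Q zygotes (log2 fold change -0.03 ± 0.11 SE, edgeR adjusted p = 0.901). Sohlh1 (chr2:25842995-25847248, minus strand, 8 exons) had 2 counts in 1 WT zygote, 5 counts in 1 R442Q zygote and 0 in the other 9, so no difference was detectable at this depth.

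**Figure D4:**
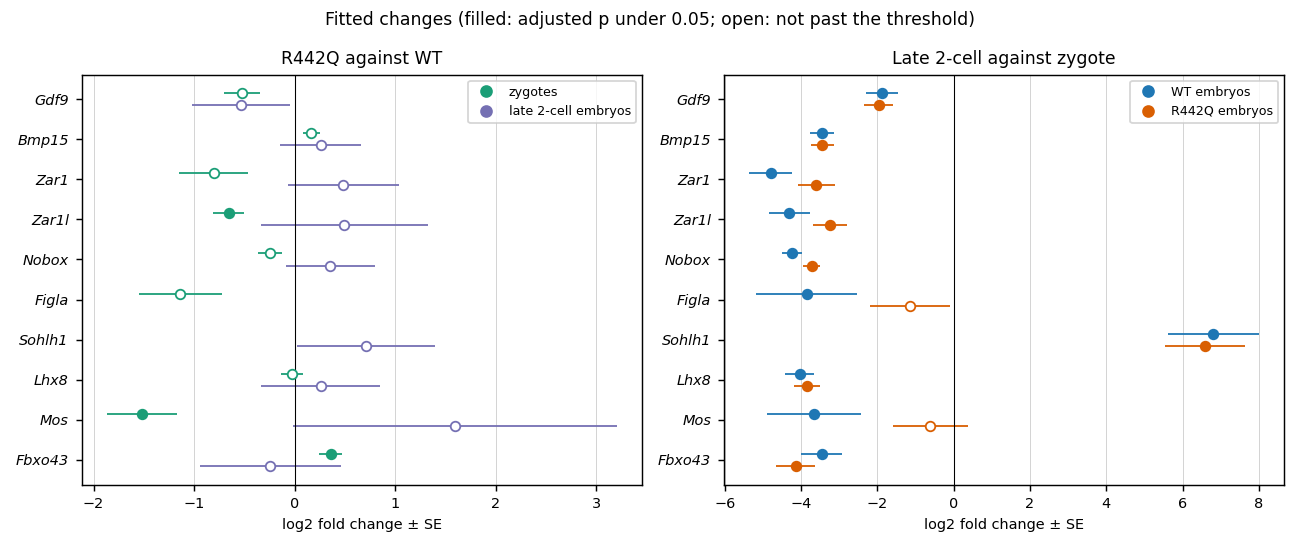
Fitted log2 fold changes with their standard errors for R442Q against WT (left; green zygotes, purple late 2-cell embryos) and for late 2-cell embryos against zygotes (right; blue WT, orange R442Q); filled points passed an adjusted p of 0.05. On the left 3 zygote points are filled and no late 2-cell point, and on the right 10 WT and 8 R442Q points are filled, with Sohlh1 alone above 0.

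The partners of these genes were read from 8 lists of the same pathways, which were chosen with results of these data known. In R442Q zygotes 0 of 17 tested genes reported as FIGLA, NOBOX or LHX8 targets rose and 7 fell, against 6.3% of all tested genes higher and 6.92% lower, with a median log2 fold change of -0.42 against 0.01 over all genes. Zp3, a zona pellucida protein, fell from 116 ± 21 CPM (SD, n = 5) to 46.5 ± 10.8 CPM (SD, n = 6; log2 fold change -1.35 ± 0.17 SE, edgeR adjusted p = 0.000200). Dnmt1, the maintenance DNA methyltransferase, fell by 1.29 and Nlrp14, a maternal NLR family gene, by 1.12 on the log2 scale. The other oocyte transcription regulators had 0 of 12 called in either direction.

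Among receptors, SMADs and processing enzymes of the ligands, 1 of 16 fell and 0 rose, a share near the 6.92% of all tested genes that fell. The one was Furin, a protease that cleaves TGF-beta family precursors (log2 fold change -0.86 ± 0.23 SE). Of 12 other oocyte ligands, receptors and gap junction genes 3 fell and 2 rose. Fgf8, a growth factor that the oocyte sends to cumulus cells, fell by 1.25, Gja4, the connexin of the oocyte's gap junctions, by 1.18, and Pde3a, the phosphodiesterase that lowers oocyte cAMP, by 0.72 on the log2 scale.

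Around Mos, 5 of 14 MAP kinase pathway genes rose and 1 fell, against 6.3% and 6.92% of all tested genes. Map2k1, the kinase that MOS phosphorylates, rose by 0.52 and Dusp6, a MAP kinase phosphatase, by 2.38 on the log2 scale. Around Fbxo43, 5 of 26 genes of the anaphase promoting complex and of EMI2 turnover fell and 0 rose, where 13.2% of all tested genes were called in either direction. These included Camk2g, the kinase that triggers EMI2 destruction after fertilisation (log2 fold change -0.51), the subunit gene Anapc4 (-0.88) and Btrc, which marks EMI2 for destruction (-0.51).

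Of 20 genes of cyclin B-CDK1 and meiotic resumption 2 rose and 2 fell, near the shares of all tested genes (6.3% and 6.92%). Pttg1, which encodes securin, rose by 0.45, and Cdc25a and Bub1b fell by 1.18 and 1.42 on the log2 scale. Of 25 genes of maternal mRNA storage, the setting of the ZAR proteins, 4 rose and 5 fell, where 13.2% of all tested genes were called. Cpeb1, which binds the polyadenylation element of stored mRNAs, fell by 0.82, the poly(A)-binding Pabpc1l fell by 0.80 and Igf2bp3 rose by 0.58 on the log2 scale.

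Late 2-cell embryos showed no called difference between R442Q and WT in any of the 10 genes. Figla was too low to be tested, and 0 of the other 9 passed edgeR's test, as against 4.18% of 13883 genes (1.22% higher and 2.95% lower in R442Q). At an unadjusted p of 0.05 the count among the 9 was also 0, since their lowest unadjusted p was 0.293, while 2910 of all genes passed. DESeq2 called 0 of the 7 for which it gave an adjusted p, which leaves out Zar1l and Mos. Of all 13883 genes it called 1683. The median of the 9 log2 fold changes was 0.35 against 0.07 over all genes, and no gene of the 9 had genotypes that did not overlap, as 12.2% of all tested genes did.

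The embryos of 1 group differed widely at this stage. Mos held 0.140, 8.09, 1.85 and 0.829 CPM in WT and 0.531, 0, 3.30, 36.5 and 0 CPM in R442Q late 2-cell embryos. R442Q replicate 4 thus had more Mos than 3 of the 5 WT zygotes, while 2 of its group had none. The same embryo had the most Zar1 (48.7 CPM, the other 8 embryos at 8.66 to 21.2 CPM), the most Fbxo43 (49.2 CPM, the others 3.01 to 27.8 CPM) and the most Sohlh1 (18 CPM). The log2 fold change of Mos was 1.59 ± 1.61 (SE, edgeR adjusted p = 0.618), and that of Zar1 was 0.48 ± 0.55 with all embryos and -0.13 without R442Q replicate 4.

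Zar1l held 2.80, 3.98, 2.98 and 8.95 CPM in WT and 3.89, 3.57, 1.44, 4.91 and 17.3 CPM in R442Q late 2-cell embryos. The highest of them, R442Q replicate 5, set the sign of its log2 fold change, 0.49 ± 0.83 with and -0.38 without that embryo. WT replicate 3 had the most Gdf9 and Bmp15. Gdf9 held 66.3, 105, 398 and 177 CPM in WT and 72.9, 79.3, 195, 193 and 84.8 CPM in R442Q embryos, a log2 fold change of -0.53 ± 0.49 (SE) that became 0.15 without WT replicate 3. Bmp15 held 149, 185, 514 and 233 CPM in WT and 439, 309, 251, 397 and 162 CPM in R442Q embryos (0.26 ± 0.40 SE).

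Nobox was the steadiest in WT late 2-cell embryos, with 11.8, 14.2, 12.5 and 14.1 CPM, against 22.1, 13.1, 21.7, 13.6 and 10.2 CPM in R442Q embryos. Lhx8 held 6.96 to 14.6 CPM in WT and 4.91 to 22.5 CPM in R442Q embryos, and Fbxo43 12 to 27.8 CPM and 3.01 to 49.2 CPM. Figla was at 0 in 2 of 4 WT and 3 of 5 R442Q late 2-cell embryos, and its highest value was 3.01 CPM (21 counts) in R442Q replicate 3. The counts of the 8 partner lists stand beside 1.22% of all tested genes called higher and 2.95% lower at this stage. In the MAP kinase list 2 of 15 fell, among them Map2k2 (log2 fold change -1.86). In the EMI2 and anaphase promoting complex list 2 of 26 fell, the phosphatase subunit gene Ppp2r5d (-2.14) and Anapc7 (-1.63). Of 20 genes of cyclin B-CDK1 Pttg1 rose (1.21) and Espl1, which encodes separase, fell (-1.26), and of 24 storage genes Igf2bp3 fell (-2.24). None was called of 16 targets (median log2 fold change 0.70), 15 receptors and SMADs, 11 ligand and gap junction genes or 13 transcription regulators.

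From zygote to late 2-cell, 9 of the 10 genes fell in WT embryos and Sohlh1 rose. All 10 passed edgeR's test, as against 61.2% of 16199 genes (36.2% higher and 25% lower at the late 2-cell stage). The median log2 change of the 10 was -3.76, against 0.34 over all genes. In each of the 10, the 4 WT late 2-cell embryos did not overlap the 5 WT zygotes, as in 56.9% of all tested genes. Each stage came as a table of its own and the values were scaled together, so stage and table cannot be told apart. In RNA of whole embryos, fewer cells of a type and less RNA per cell cannot be told apart, and only shares of the RNA were measured.

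Of the 9 fitted changes that of Zar1 was the lowest and that of Gdf9 the nearest to 0. Zar1 fell 27.8-fold (log2 change -4.80 ± 0.57 SE, edgeR adjusted p = 1.5e-07), from 415 ± 252 CPM (SD, n = 5) to 14.9 ± 4.27 CPM (SD, n = 4). Zar1l fell 19.9-fold, Nobox 18.8-fold and Lhx8 16.5-fold, with log2 changes of -4.31 ± 0.53, -4.23 ± 0.26 and -4.04 ± 0.38 (SE). Mos fell 12.7-fold, Fbxo43 11.0-fold and Bmp15 10.9-fold. Single embryos set the size of some of these: the log2 change of Mos went from -3.66 to -5.34 without WT late 2-cell replicate 2, below that of Zar1, and the change of Bmp15 from -3.45 to -4.11 without WT late 2-cell replicate 3. Gdf9 fell 3.69-fold (log2 change -1.88 ± 0.42 SE, edgeR adjusted p = 0.000468), from 689 ± 182 CPM (SD, n = 5) to 186 ± 148 CPM (SD, n = 4), and its log2 change was -2.72 without WT late 2-cell replicate 3. Figla fell from 25 to 36 counts per zygote to 6 counts over 4 late 2-cell embryos, and its fitted log2 change of -3.86, or -5.85 without WT late 2-cell replicate 4, depends on the prior count of the fit.

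With the unequal falls, the order of the mean levels changed in WT embryos. Among WT late 2-cell embryos Gdf9 stood at 118 ± 94.9 FPKM (SD, n = 4) and Bmp15 at 95.7 ± 59.3 FPKM, ahead of Zar1 at 13.2 ± 3.61 FPKM. The values of Gdf9 (45.5 to 255 FPKM) and Bmp15 (56.8 to 184 FPKM) overlapped. In R442Q late 2-cell embryos the mean of Bmp15 stayed ahead, at 109 ± 35.1 FPKM against 81.1 ± 44.8 FPKM for Gdf9 (SD, n = 5). The ratio of Bmp15 to Gdf9 FPKM within a WT late 2-cell embryo was 1.25, 0.982, 0.720 and 0.729, below all 5 WT zygotes. In R442Q late 2-cell embryos it was 3.35, 2.16, 0.714, 1.14 and 1.06, with replicate 1 among the R442Q zygotes (2.66 to 4.68). Neighbours in the WT order from Lhx8 (6.83 to 11.6 FPKM) through Nobox (7.54 to 9.19 FPKM), Fbxo43 (3.43 to 14.3 FPKM) and Sohlh1 (1.19 to 14.7 FPKM) to Zar1l (4.38 to 12.6 FPKM) all overlapped.

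R442Q embryos followed the same course in 8 of the 10 genes, 7 of which fell while Sohlh1 rose, against 65.1% of all genes called (35.3% higher and 29.8% lower). Their log2 changes were -1.97 ± 0.38 for Gdf9, -3.44 ± 0.29 for Bmp15, -3.60 ± 0.48 for Zar1 and -3.24 ± 0.45 for Zar1l (SE). Nobox changed by -3.72 ± 0.23, Lhx8 by -3.86 ± 0.34 and Fbxo43 by -4.14 ± 0.51 (SE). In these 8 the stages did not overlap, as in 45.5% of all tested genes. The change of Zar1l was -4.07 without R442Q late 2-cell replicate 5 and that of Fbxo43 -5.14 without replicate 4. Mos (log2 change -0.61 ± 0.98 SE, edgeR adjusted p = 0.596) and Figla (-1.15 ± 1.05 SE, edgeR adjusted p = 0.341) were not called. Each rested on 1 embryo: without R442Q replicate 4 the change of Mos was -3.66 (adjusted p = 0.00190), and without R442Q replicate 3 that of Figla was -3.01 (adjusted p = 0.0204).

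The test of the difference itself, whether the R442Q effect changed from zygote to late 2-cell, called 0 of the 10 genes against 10.1% of all genes. None of the 10 had an unadjusted p under 0.05 in edgeR, while 3997 of all 16199 tested genes did. DESeq2 called 0 of the 9 for which it gave an adjusted p, which leaves out Fbxo43. Of all 16199 genes it called 2446. The nearest was Mos, at 3.05 ± 1.5 on the log2 scale (SE, edgeR adjusted p = 0.211), with Zar1 at 1.19 ± 0.64 (adjusted p = 0.251) and Zar1l at 1.07 ± 0.62 (adjusted p = 0.300). For Mos the estimate came down to 0.08 without R442Q late 2-cell replicate 4. Fbxo43 stood at -0.68 ± 0.65 (SE, adjusted p = 0.563) and passed without the same embryo (-1.57, adjusted p = 0.0351). Figla stood at 2.70 ± 1.61, Nobox at 0.51 ± 0.30, Lhx8 at 0.19 ± 0.45, Bmp15 at 0.01 ± 0.38, Gdf9 at -0.09 ± 0.53 and Sohlh1 at -0.22 ± 0.91 (SE). Of all tested genes 3.07% were called higher and 7.05% lower, and with size factors by relative log expression the called genes split into 707 higher and 917 lower in place of 497 and 1142.

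Over the same step 15 of the 17 reported FIGLA, NOBOX and LHX8 targets fell and 0 rose in WT embryos, with a median log2 change of -2.86, and 13 fell and 1 rose in R442Q embryos (median -1.87). Of all tested genes 25% fell and 36.2% rose in WT and 29.8% and 35.3% in R442Q embryos. Nlrp4f, Oas1d and Pla2g4c, all abundant in the oocyte, changed by -4.50, -3.84 and -4.21 in WT. In R442Q embryos Nlrp4f, Pla2g4c and Rfpl4 changed by -4.63, -4.26 and -4.89. Of 26 storage genes 14 fell and 5 rose in WT, among them Dazl (-3.88), Pabpc1l (-6.31) and Eif4enif1 (-2.24), and 16 fell and 6 rose in R442Q embryos, among them Eif4enif1 (-3.25), Pabpc1l (-5.77) and Btg4 (-3.26).

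The counts of the other lists are read against the same shares of all tested genes, 61.2% called in WT and 65.1% in R442Q embryos. Of 20 genes of cyclin B-CDK1 12 fell and 4 rose in WT, among them Pttg1 (-2.83), Ccnb2 (-2.74) and Cdc25c (4.96), and 13 fell and 3 rose in R442Q embryos, among them Pttg1 (-2.15), Ccnb2 (-2.47) and Cdk1 (3.12). The EMI2 list had 9 of 26 lower and 8 higher in WT, with Skp1a (-2.40), Camk2g (-2.70) and Btrc (-2.12), and 11 lower and 4 higher in R442Q embryos, with Camk2g (-3.34), Fzr1 (-3.85) and Ube2c (2.60). The MAP kinase list had 4 of 15 lower and 6 higher in WT, with Map2k1 (-2.21), Mapk3 (-1.69) and Map2k2 (2.52), and 6 lower and 7 higher in R442Q embryos, with Map2k1 (-3.64) and Mapk3 (-1.48).

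The following counts too stand beside 61.2% of all tested genes called in WT and 65.1% in R442Q embryos. The receptor and SMAD list had 5 of 16 lower and 3 higher in WT, with Bmpr1b (-2.66), Smad2 (-1.50) and Tgfbr1 (2.78), and 6 lower and 3 higher in R442Q embryos, with Bmpr1b (-3.05), Smad3 (-2.18) and Tgfbr1 (2.34). The ligand and gap junction list had 4 of 12 lower and 4 higher in WT, with Gja4 (-5.27), Fgf8 (-3.66) and the connexin gene Gja1 (7.16), and 5 lower and 4 higher in R442Q embryos, with Gja4 (-3.81), Fgf8 (-3.04) and the receptor gene Kit (-1.60). The transcription regulators had 5 of 15 lower and 5 higher in WT, with Foxo3 (-1.47), Pou5f1 (-2.14) and Taf4b (3.06), and 5 lower and 2 higher in R442Q embryos, with Pou5f1 (-3.19), Foxo3 (-1.64) and Stra8 (8.30). The values of Gja1 and Stra8, near 0 in the zygotes concerned, depend on the prior count of the fit.

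In the test of the difference 6 of these 17 were called and all 6 were higher, against 3.07% of all tested genes higher and 7.05% lower, among them Nlrp14 (1.75), Oosp1 (1.55) and Npm2 (1.11 on the log2 scale). Npm2, a histone chaperone of the oocyte, went from 511 to 64.9 CPM in WT and from 453 to 124 CPM in R442Q embryos. In the MAP kinase list 2 of 15 were called, both lower, among them Map2k1 (-1.43). The counts of these and the following lists stand beside 10.1% of all tested genes called. Of 26 storage genes 2 were lower and 2 higher, including Igf2bp3 (-2.89), Eif4enif1 (-1.01) and Dazl (1.56). The list around Fbxo43 had 3 higher and 3 lower of 26, with Ppp2r5d (-2.28), Anapc2 (-1.70) and Skp1a (1.12), and that of cyclin B-CDK1 1 higher and 3 lower of 20, with Ccnb3 (3.53), Espl1 (-1.35) and Cdc25c (-1.69). The ligand and gap junction list had 2 of 12 lower, Gpr3 (-1.95) and Gja1 (-3.68), the transcription regulators 3 of 15 lower, Tcf3 (-1.82), Taf4b (-1.89) and Gata4 (-2.05), and the receptors and SMADs 0 of 16 in either direction.

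Sohlh1 was the exception, in that its mRNA was all but missing in zygotes and appeared in every late 2-cell embryo. SOHLH1 is a basic helix-loop-helix factor of germ cells that acts early in oocyte growth. The 4 WT late 2-cell embryos held 14.7, 3.55, 9.95 and 1.33 CPM (105, 25, 70 and 8 counts), and the 5 R442Q ones 7.08, 13.8, 7.90, 18 and 11.8 CPM. Every late 2-cell embryo lay above every zygote, and the genotypes overlapped (log2 fold change 0.71 ± 0.68 SE, edgeR adjusted p = 0.601). Pooled over embryos, 208 counts in WT late 2-cell embryos against 2 in WT zygotes give a ratio of 158 at equal depth, with an exact 95% interval of 43.3 to 1317. In R442Q embryos 396 counts against 5 give a ratio of 114 (48.3 to 352). These intervals cover counting error only. The edgeR test called the rise in both genotypes (adjusted p = 3.7e-05 in WT and 7.6e-06 in R442Q), where the fitted log2 changes of 6.81 and 6.59 depend on the prior count and became 8.81 and 9.45 without the 1 zygote of each genotype that had counts. In WT the change was 6.09 without late 2-cell replicate 1, which held 105 of the 208 pooled counts. No other annotated gene shares a 50-base stretch with Sohlh1.

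The stretch upstream of Sohlh1 is shown because this was the only one of the 10 genes that rose. It is the RefSeq sequence of GRCm38.p6, minus strand, chr2:25847349-25847498, from 250 to 101 bases before the start, with matches to CACGTG in capitals.
Sohlh1: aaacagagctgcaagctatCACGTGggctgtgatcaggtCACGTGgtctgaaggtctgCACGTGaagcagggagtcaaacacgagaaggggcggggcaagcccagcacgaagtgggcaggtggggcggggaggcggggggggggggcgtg

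CACGTG, a form of the E-box CANNTG that basic helix-loop-helix proteins bind, begins 231, 211 and 192 bases before the start of Sohlh1. The motif reads the same on both strands, and every CACGTG is also a CANNTG. Of 27025 promoters of the same length (250 bases before to 50 after the start) 7.24% hold at least 1 CACGTG and 0.0888% hold 3 or more. Promoters were found for 7 of the 10 genes, and none of the other 6 holds a CACGTG. A match is a description of the letters and not a shown binding site.

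Among the genes that fell, the promoters of Bmp15 and Zar1l hold TAATTG or TAATTA on either strand, the core that NOBOX prefers, as do 12.6% of the 27025 promoters. They are shown from RefSeq, GRCm38.p6, minus strand, with the core in capitals, at chrX:6320825-6320974 for Bmp15 (250 to 101 bases before the start) and chr5:150518210-150518409 for Zar1l (250 to 51 bases before).
Bmp15: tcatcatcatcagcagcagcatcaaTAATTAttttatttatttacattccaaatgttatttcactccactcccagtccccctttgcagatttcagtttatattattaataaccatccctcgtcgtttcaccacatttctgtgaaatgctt
Zar1l: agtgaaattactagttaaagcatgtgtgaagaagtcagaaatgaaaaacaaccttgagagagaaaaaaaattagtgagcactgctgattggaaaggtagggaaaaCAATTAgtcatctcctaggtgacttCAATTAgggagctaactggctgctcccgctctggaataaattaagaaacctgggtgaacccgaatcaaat

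The match in Bmp15 begins 225 bases before the start, and those in Zar1l, read on the other strand, 145 and 120 bases before. Zar1l fell in R442Q zygotes while Bmp15 did not pass the test there, and both fell from zygote to late 2-cell.

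Stored oocyte mRNAs are lengthened at their poly(A) tail through the element TTTTAT or TTTTAAT ahead of the signal AATAAA or ATTAAA. In the last 100 bases of the main transcript, read on the sense strand, only Gdf9 of the 9 genes with a 3′ end of that length held the element, as did 17.8% of 19732 genes. The sites of Gdf9, whose fall was the smallest of the 9 in WT embryos, and of Mos, which had the largest of the 3 called changes in zygotes, are shown with the element and the signal in capitals, from the GENCODE transcripts on GRCm38.
Gdf9: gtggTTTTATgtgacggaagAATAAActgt
Mos: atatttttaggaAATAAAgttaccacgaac

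The genes whose pattern was most like each of the abundant members were looked up over all 20 zygotes and late 2-cell embryos, as the root mean square difference of log2 CPM centred on WT zygotes, among 7208 genes with at least 10 CPM in WT zygotes. For Bmp15 they were Gm3259 (0.249) and C87414 (0.285), for Nobox Gm13084 (0.308) and Usp46 (0.325), and for Gdf9 Bpgm (0.478) and Golm1 (0.503). Lhx8 was nearest to Spidr (0.443) and Gm47877 (0.496), and Zar1l to Chd1l (0.521) and Ccdc14 (0.624). Fbxo43 was nearest to Lmo7 (0.532) and E330034G19Rik (0.574), and Zar1 to Cnot11 (0.620) and D6Ertd527e (0.667). Mos had no close match, its nearest being Lrrc36 (1.02) and Sgo2b (1.05). The median distance over all candidates lay between 1.42 for Gdf9 and 2.69 for Mos, and the points share libraries and depth.

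In blastocysts the 10 genes were at or near 0. None reached 1 FPKM in at least 7 of the 14 embryos, so none entered limma's test of R442Q against WT on log2(FPKM + 1), which called 1 of 11297 genes (0.00885%, with 836 at an unadjusted p under 0.05). Nobox and Sohlh1 were listed at 0 in all 14 embryos. Gdf9 was above 0 in 1 embryo (0.0400 FPKM), Bmp15 in 1 (0.05 FPKM), Zar1l in 1 (0.0900 FPKM), Mos in 1 (0.200 FPKM) and Zar1 in 2 (0.450 and 0.0300 FPKM).

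The exceptions were few. Figla was listed at 1.42 FPKM in 1 of 7 WT blastocysts and at 4.90, 2.20 and 2.71 FPKM in 3 of 7 R442Q blastocysts. Lhx8 stood at 1.48 FPKM in 1 WT and 2.17 FPKM in 1 R442Q blastocyst. Fbxo43 was above 0 in 4 of 7 WT blastocysts, at most 0.140 FPKM with a median of 0.0200, and in 7 of 7 R442Q blastocysts, from 0.0200 through a median of 0.190 to 1.37 FPKM. With no filter on low values, 8 of the 10 genes could be tested and limma called 0 of them, as it called 0 of all 25540 genes. The lowest unadjusted p among the 8 was 0.0599, for Fbxo43 (difference 0.31 ± 0.15 SE on log2(FPKM + 1), adjusted p = 0.799). All 14 blastocysts had the inhibitor and none without it was analysed here, so these values hold for inhibitor-treated embryos.

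**Figure D5:**
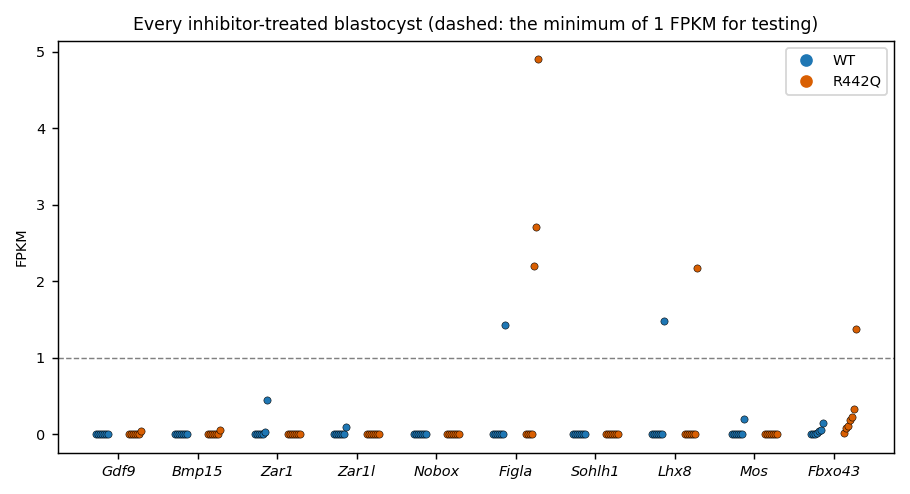
FPKM of the 10 genes in each of the 7 WT (blue) and 7 R442Q (orange) inhibitor-treated blastocysts, with 1 point per embryo and a dashed line at 1 FPKM. Figla in 4 embryos, Lhx8 in 2 and Fbxo43 in 1 lie above the line, and all other points lie below it.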

How the data were processed

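RNA of 34 single embryos was sequenced (SMART-seq2 cDNA, Tn5 and Nextera libraries, HiSeq X-10, per the labels). The authors deposited estimated counts per gene for zygotes and late 2-cell embryos, and FPKM, normalised by the authors to length and depth, for all 3 stages. RSEM and the build mm10 are named per the submitters' processing notes; the annotation and the use of strand are not given in the sources used here. Estimated counts were rounded to whole numbers. In R 4.3.3, edgeR 4.0.16 (filterByExpr with a minimum count of 10, TMM scaling, quasi-likelihood test) compared R442Q with WT within a stage. A model of the 4 early groups gave the change between stages and the difference of the genotype effect. Each SE given for edgeR was back-calculated, as the size of the log2 fold change divided by the square root of the test's F statistic. Printed CPM use library totals scaled by TMM over the 20 early embryos. Blastocysts were tested with limma 3.58.1 on log2(FPKM + 1) for genes of at least 1 FPKM in at least 7 of 14 embryos. Calls needed an adjusted p (Benjamini-Hochberg) under 0.05. The alternatives were DESeq2 1.42.0, other size factors, no filter, limma on FPKM, 1 joint model, a replicate block, a GC and length correction, and each embryo left out. All 10 genes are named in every comparison, and of each partner list the 3 called genes with the smallest unadjusted p, except 1 that is not reported here. The 10 genes, the lists and the tests were chosen with earlier results of these data known. Positions and sequences come from GENCODE M21 and RefSeq on GRCm38. The tests were tested on simulated data.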

Additional observations from a re-analysis of the deposited data

Results flagged for a closer look

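An embryo that stood apart from the rest of its group by Dixon's criterion occurred in 21 of 51 groups of values (41.2%). The criterion's chance rate of about 1 in 20 holds for normally distributed values, so 41.2% cannot be read against it. In some of these groups all other embryos were at 0, so that 1 embryo above 0 stands apart. In zygotes the R442Q embryo of replicate 6 stood apart with 4166 CPM of Bmp15, that of replicate 2 with a low 158 CPM of Nobox, and that of replicate 3 with 26.8 CPM of Mos. WT zygote replicate 5 stood apart with 221 CPM of Lhx8. Sohlh1 stood apart in replicate 4 of both genotypes, with 0.270 CPM in WT and 0.645 CPM in R442Q. In late 2-cell embryos R442Q replicate 4 stood apart with 36.5 CPM of Mos and 49.2 CPM of Fbxo43, R442Q replicate 5 with 17.3 CPM of Zar1l, R442Q replicate 3 with 3.01 CPM of Figla and WT replicate 4 with 0.829 CPM of Figla.

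In blastocysts WT replicate 1 stood apart with 0.0900 FPKM of Zar1l, 1.48 FPKM of Lhx8, 0.200 FPKM of Mos and 0.140 FPKM of Fbxo43. WT replicate 5 stood apart with 0.450 FPKM of Zar1 and 1.42 FPKM of Figla. R442Q replicate 1 stood apart with 0.0400 FPKM of Gdf9 and 1.37 FPKM of Fbxo43, R442Q replicate 2 with 2.17 FPKM of Lhx8 and R442Q replicate 5 with 0.05 FPKM of Bmp15.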

How the results depend on the processing

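Of 1019 values of single genes under other settings, 948 kept their direction and their side of the threshold, 14 lost and 12 gained a call and 45 changed sign. The 9 falls and the rise of Sohlh1 in WT embryos were called in every alternative that gave an adjusted p; DESeq2 gave none for Fbxo43, and so called 9 genes in WT and 7 in R442Q, and none for Zar1l and Mos between genotypes in late 2-cell embryos. In zygotes the number of the 10 genes called was 0 with both stages in one model, and 2 to 4 when 1 embryo was left out. For the difference between stages it was 0 to 1 when 1 embryo was left out, the 1 being without R442Q late 2-cell replicate 4.

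The replicate numbers of the sample titles showed no pairing of the embryos. In zygotes and some late 2-cell embryos they differ from the numbers of the deposited columns. Pairing by the column numbers was not examined there, and the replicate block uses the title numbers. Same-numbered deviations correlated at -0.06 to 0.06 in zygotes, -0.16 to 0.22 in late 2-cell embryos and -0.17 to 0.20 in blastocysts. Of the same-numbered WT embryos 1 of 5, 1 of 4 and 2 of 7 correlated best with their own number. With the replicate block 2 of the 10 genes were called in zygotes (1205 of all genes against 1643), 0 in late 2-cell embryos (49 against 580) and 0 in blastocysts (0 against 1). The block with the GC and length correction called 8 genes of all in late 2-cell embryos and 0 of the 10, and the block called 10, 8 and 0 of the 10 genes for the change in WT, in R442Q and their difference (1085 against 1639).

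Signs changed among values that were not called. Lhx8 in zygotes was 0.00062 with the replicate block and 0.0019 with both stages in one model, and -0.081 to 0.050 with 1 embryo left out. On limma with FPKM, Lhx8 in late 2-cell embryos was -0.042 and Fbxo43 0.15. With the replicate block Zar1l was -0.35 and Lhx8 -0.21, with the GC and length correction Zar1l was -0.0023, and with both -0.85 and -0.22. With 1 late 2-cell embryo left out Gdf9 ran from -0.82 to 0.15, Zar1 from -0.13 to 0.69, Zar1l from -0.38 to 0.99, Lhx8 from -0.076 to 0.46 and Fbxo43 from -1.25 to 0.058. For the difference between stages Gdf9 was 0.095 with relative log expression factors, 0.095 in DESeq2 and 0.23 with the block, and Lhx8 was -0.040 with the block. With 1 embryo left out Gdf9 ran from -0.25 to 0.71, Bmp15 from -0.064 to 0.66 and Sohlh1 from -2.22 to 2.81. The cause was not tested.

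Over all genes, the joint model called 270 in zygotes (197 higher, 73 lower) and 2507 in late 2-cell embryos (944 and 1563). On FPKM the zygote calls split into 411 higher and 1231 lower, and the median of all genes shifted from 0.01 to -0.11. Late 2-cell calls were 1683 in DESeq2 (740 and 943), 889 with no filter, 123 (67 higher) with the GC and length correction and 142 to 891 with 1 embryo left out. For the difference between stages they were 1089 to 2311 with 1 embryo left out, and the median shifted from -0.16 to -0.01 with relative log expression factors, as that of the R442Q change did from 0.22 to 0.34. Blastocyst calls were 5 with TMM scaling, 0 with no filter and 0 to 30 with 1 embryo left out. Depth limits what can be said of Figla, Sohlh1 in zygotes and Mos in late 2-cell embryos, which rest on few counts.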
